A study of Mus musculus with 2 samples.

Results

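Replication-dependent histone mRNAs encode the linker histone H1 and the core histones H2A, H2B, H3 and H4 that package newly made DNA. Unlike other animal mRNAs, they normally end without a poly(A) tail. Their 3′ end is a short stem-loop bound by SLBP. The precursor is cut a few bases behind the stem-loop, before the downstream element, with which the U7 small nuclear RNA pairs. The mRNAs are made during S phase, when DNA is copied, and are degraded when it ends, and ES cells spend much of their cycle in S phase. What is described here are short pieces of these mRNAs that were sequenced along with the small RNAs of J1 ES cells.

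J1 ES cells, a mouse embryonic stem cell line, were grown on gelatin with LIF and exposed for 24 h either to 1 mM AICAR, an activator of AMP-activated protein kinase, or to the same volume of the solvent DMSO. The sRNA fraction was sequenced in 1 library per condition. The control library has the title J1_U and the treatment label DMSO. A tag is a distinct sequence with its number of reads. There were 910008 tags and 18870345 clean reads after DMSO, and 1085873 tags and 21091226 clean reads after AICAR. With 1 library per condition no difference has a replicate check. The intervals given are 95% intervals for counting error only, exact Poisson for reads per 1000000 clean reads (RPM), exact binomial (Clopper-Pearson) for the fold change (FC, AICAR over DMSO) and Wilson for shares, and reads copied by PCR are not independent molecules. Markers of ES cells were read in both libraries (Pou5f1 had 215 and 156 reads in DMSO and AICAR, Nanog 141 and 175), whereas the 7 fibroblast markers had 2 reads in each library. The 10 markers of differentiated lineages had 53 reads in DMSO and 111 in AICAR, most of them on Eomes, with 34 and 89 reads (FC 2.34, 1.56 to 3.59), and the part of this difference in the results was not tested.

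A histone fragment was a tag of at least 20 nt that matched, in sense and without mismatch, a protein_coding transcript whose symbol starts with Hist1h, Hist2h, Hist3h or Hist4h in the GENCODE M21 annotation (genome build GRCm38). This gave 2466 of 1766298 distinct tags, of which 1607 were read in the DMSO library, 1181 in the AICAR library and 322 in both. They held 2673 DMSO reads and 1724 AICAR reads. Of the 67 genes in the annotation, 66 were matched by a tag, and the gene without any was Hist1h1t, the testis form of H1. Most tags were rare: 1777 of them (72.1%) were read once over both libraries, and the most read tag held 1.89% of the histone reads. The genes of a class are nearly identical copies, so 1183 tags matched several histone genes and were counted once in the total and once for each gene. In addition, 616 tags, with 813 DMSO and 544 AICAR reads, also matched a gene outside the histone list. The 129 tags that matched at least 10 such genes are called repeat-like, and they had 135 DMSO and 147 AICAR reads (FC 0.974).

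Most of the 3 most read tags of each core histone class came from within the coding sequence and matched several genes. The following ones are shown because they were among the 3 most read tags of their core histone class.
H2A, 16 genes: caacgacgaggagctcaacaagctg
H3, 12 genes: ccagaagtcgaccgagctgct
H4, 10 genes: cggtgtgctgaaggtgttcctg
H2B, 11 genes: agaagaaggacggcaagaagcg
H4, 4 genes: ccctctacggattcggcggct
The H2A tag of 25 nt covered nt 267 to 291 of the coding sequence (codons 89 to 97, the start codon counted as 1) and was read 54 times in DMSO and 29 times in AICAR. It also matched 5 genes outside the histone list. The H3 tag of 21 nt covered nt 165 to 185 (codons 55 to 62) in most genes and was read 42 and 17 times, and the same tag without its first base was read 39 and 9 times. Both H3 tags also matched 1 gene outside the list. For H4, the first tag lay at nt 168 to 189 with 20 and 5 reads, and the second at nt 290 to 310, which ends on the first base of the stop codon, with 17 and 2 reads. The H2B tag lay at nt 68 to 89 with 13 and 8 reads. Each of these 5 was read more often in the DMSO library, but the 3 most read tags of H2A also included one with 9 reads in either library, at nt 355 to 374, and those of H2B included a repeat-like tag far behind the coding sequence of Hist1h2bh, with 6 and 15 reads.

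Tags that belong to 1 gene are shown next, because they place a fragment at 1 locus. The H1 tag and the H4 tag with the most reads of this kind both ran across the stop codon.
Hist1h1d, chr13:23555746-23555769, plus strand: caagaagtagagtggtgcgtcctg
Hist1h4d, chr13:23581897-23581919, plus strand: acggattcggcggctaaacgtac
The Hist1h1d tag was read 9 times in DMSO and 7 times in AICAR, and the Hist1h4d tag 13 and 5 times. A second Hist1h1d tag, inside the coding sequence at nt 445 to 464, was read 7 times in DMSO and 0 times in AICAR.

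Histone fragments were lower in the AICAR library in all 5 classes. In total they made up 142 RPM (136 to 147) in DMSO and 81.7 RPM (77.9 to 85.7) in AICAR, an FC of 0.577 (0.543 to 0.613). H4, with the most reads, went from 44.04 to 23.9 RPM (FC 0.544, 0.486 to 0.608). H2A went from 32.4 to 18.5 RPM (FC 0.573, 0.503 to 0.651) and H3 from 23.5 to 13.5 RPM (FC 0.572, 0.491 to 0.666). The linker histone H1 went from 22.5 to 12.1 RPM (FC 0.539, 0.460 to 0.631). The smallest difference was that of H2B, from 19.2 to 13.7 RPM (FC 0.712, 0.608 to 0.834), and without the repeat-like tags the FC of H2B was 0.616. The amount of whole histone mRNA was not measured. Whether fewer cells held such fragments or each cell held fewer cannot be told apart in bulk RNA.

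**Figure D1:**
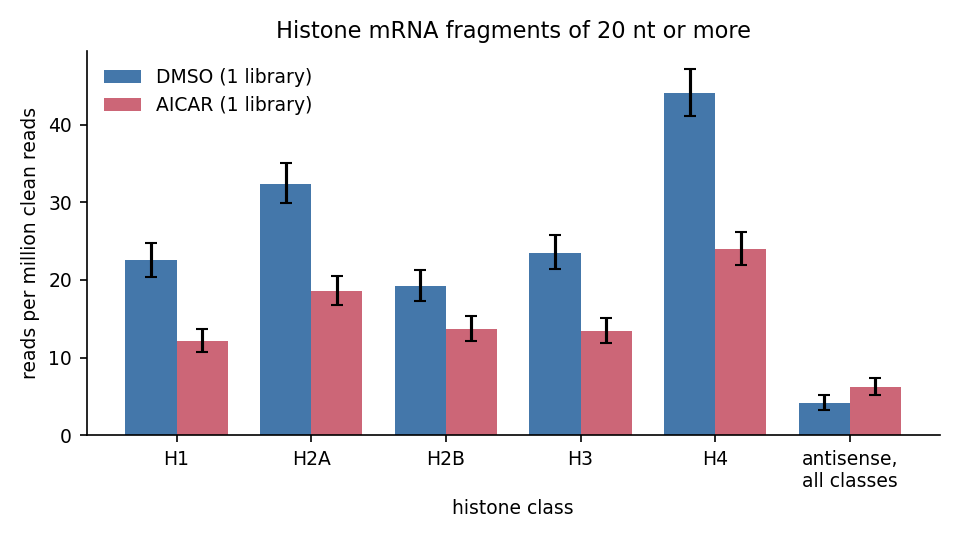
RPM (vertical axis, from 0) of histone mRNA fragments by class in the DMSO and AICAR libraries, with fragments on the opposite strand of any histone transcript at the right. Error bars are 95% Poisson intervals of the counts of 1 library each. AICAR was below DMSO in each class, from 44.04 against 23.9 RPM in H4 to 19.2 against 13.7 RPM in H2B, and above it in antisense.

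Reads in antisense of the histone transcripts, a background counted the same way, were few. They came to 78 reads in DMSO and 131 in AICAR, or 4.13 and 6.21 RPM, so that a sense read was 34.3 times as frequent as an antisense read in DMSO and 13.2 times in AICAR. Most reads were thus in sense in both libraries.

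Other mRNA fragments were also lower in the AICAR library. All protein_coding mRNA fragments together had an FC of 0.819 (0.816 to 0.823), and mRNA fragments of ribosomal proteins, another group of short and abundant mRNAs, had an FC of 0.595 (0.582 to 0.607) with 1178 RPM in DMSO and 701 RPM in AICAR. The interval of the ribosomal protein value lay inside that of the histone value. Fragments of the mitochondrial protein-coding mRNAs had an FC above 1, at 1.38 (1.30 to 1.47). Reads on miRNA hairpins also had an FC above 1, at 1.36, so that per miRNA read the histone FC was 0.424, and per read on any protein_coding transcript it was 0.704.

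By the position of the genes, fragments found in the Hist1 cluster only, on chromosome 13, had 94.1 RPM in DMSO and 56.9 RPM in AICAR (FC 0.605, 0.562 to 0.651). Those of the Hist2 cluster on chromosome 3 had 13.99 and 7.97 RPM (FC 0.569, 0.466 to 0.693). The lone gene of Hist4 on chromosome 6 had 6.62 and 3.27 RPM (FC 0.494, 0.363 to 0.668). The Hist3 cluster on chromosome 11 had only 17 and 18 reads of its own, with an FC of 0.947 and an interval of 0.461 to 1.96. Repeat-like tags were kept in these values, among them the Hist1h2bh tag in Hist1 with 6 DMSO and 15 AICAR reads.

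The FC depended on tag length. Histone reads were most frequent at 21 nt in DMSO (509 reads, 26.97 RPM) and at 22 nt in AICAR (269 reads, 12.8 RPM), and the longest histone tag had 32 nt. At 20 to 21 nt the histone FC was 0.450 (0.403 to 0.502), at 22 to 23 nt 0.605 (0.539 to 0.678), at 24 to 25 nt 0.737 (0.642 to 0.846), at 26 to 27 nt 0.657 (0.549 to 0.786) and at 28 nt or more 0.625 (0.493 to 0.790). Tags of 20 to 23 nt held 65.1% of the histone reads in DMSO and 58.2% in AICAR. Outside the histones the FC also rose from 20 to 21 nt to 24 to 25 nt and was lower for longer tags. For the other protein_coding mRNAs it was 0.696, 0.914, 1.06, 0.865 and 0.769 in these 5 length classes, and for ribosomal protein mRNAs 0.528, 0.652, 0.684, 0.592 and 0.439. Ribosomal protein fragments had a higher FC than histone fragments up to 23 nt and a lower one from 24 nt, with intervals that overlapped except at 20 to 21 nt and at 28 nt or more (0.402 to 0.479 for ribosomal protein mRNA). Histone fragments lay below the other protein_coding fragments in each of these length classes, with intervals that did not overlap except at 28 nt or more, where the others had 0.769 (0.754 to 0.785).

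**Figure D2:**
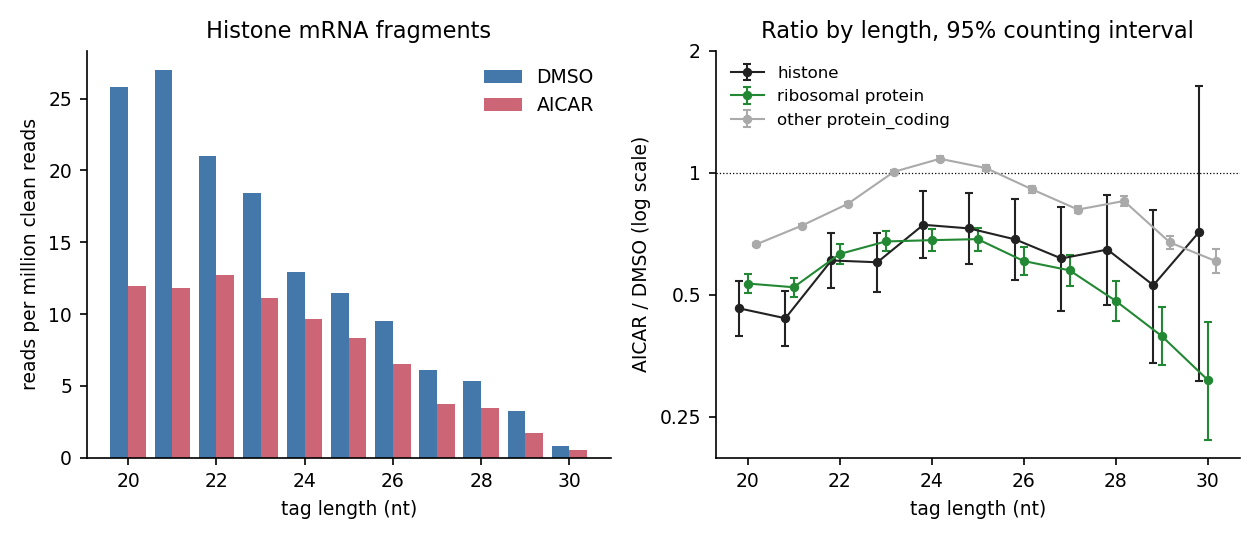
Left, RPM of histone fragments against tag length (20 to 30 nt) in both libraries. Right, the ratio AICAR over DMSO by length on a log scale for histone, ribosomal protein and other protein_coding fragments, with 95% counting intervals: at 21 nt the histone ratio was 0.438 and the other protein_coding ratio 0.741, and at 24 nt they were 0.744 and 1.08.

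Each tag was next placed on the transcript. Fragments inside the coding sequence held 71.6% of the histone reads in DMSO (1913 reads) and 63.3% in AICAR (1091 reads), with an FC of 0.510 (0.473 to 0.550). Of these coding-sequence reads, 654 and 368 also matched a gene outside the histone list. Those across the start codon had 208 and 166 reads (FC 0.714, 0.579 to 0.880), and those in the 5′ UTR had 44 and 45 reads (FC 0.915, 0.590 to 1.42). From the stop codon to the end of the mature mRNA there were 190 and 93 reads (FC 0.438, 0.338 to 0.564). Within the coding sequence, the FC was 0.474 for tags of 20 to 23 nt and 0.590 for longer tags.

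Along the coding sequence the fragments were concentrated at a few places. The position of the highest cover was the same in both libraries in H2B and H3, 286 in DMSO and 275 in AICAR in H2A, and 21 and 19 in H4. In H2A, 144 DMSO and 66 AICAR reads covered nt 286, whereas the median position was covered by 12 and 7 reads. In H3, nt 171 was covered by 140 and 55 reads against a median of 8 and 6. The peak of H2B at nt 74 had 125 and 78 reads against 9 and 7. The peak of H4 lay close to the start codon, at nt 21, with 153 and 89 reads against 18 and 14. Over the positions of a coding sequence, the cover in the libraries had a Pearson correlation of 0.962 for H2A (393 positions), 0.955 for H2B (381), 0.966 for H3 (411) and 0.892 for H4 (312). The Spearman (rank) correlations had another order, with 0.905 for H2A, 0.730 for H2B, 0.876 for H3 and 0.930 for H4. These are descriptions, since neighbouring positions share tags.

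**Figure D3:**
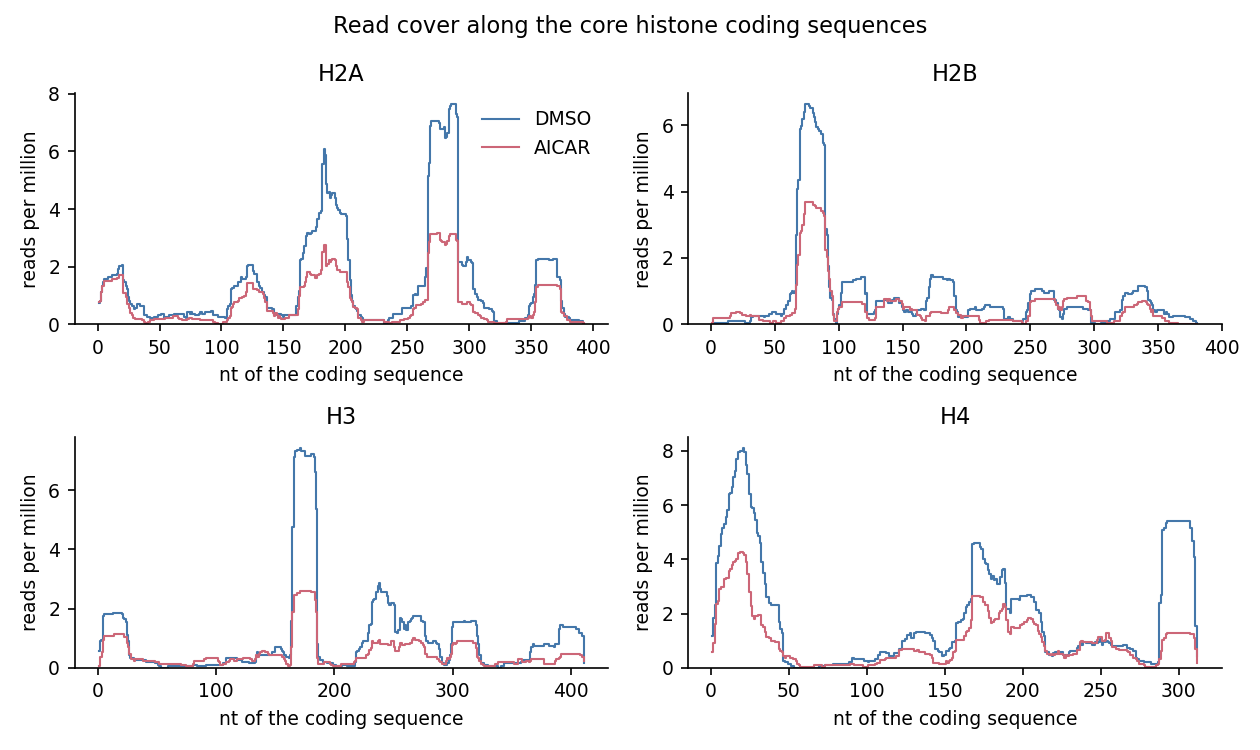
RPM that cover each nt of the coding sequence (horizontal axis, nt 1 is the first base of the start codon) of H2A, H2B, H3 and H4 in the DMSO and AICAR libraries. High cover stood at nt 286 of H2A, nt 171 of H3, nt 74 of H2B and nt 21 of H4 in both libraries, and AICAR was the lower there.

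The ends of the fragments also leaned to certain bases. Of the coding-sequence reads, 44.5% in DMSO and 40.2% in AICAR began with C, and 46.0% and 43.4% ended with G, whereas C makes up 32.8% and G 31.5% of the histone coding bases. G was rare as a first base (12.8% and 17.3%), and C as a last base (15.4% and 18.97%). Ribosomal protein fragments began with A most often (37.9% in DMSO) and ended with G most often (36.6%).

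Few fragments reached the 3′ end of the annotated transcripts. The last base lay within 9 nt of the annotated 3′ end in 24 of 2673 DMSO reads, or 0.898% (0.604 to 1.33), and in 13 of 1724 AICAR reads, or 0.754% (0.441 to 1.29). The next step, 10 to 29 nt from the end, held 2.21% and 2.15%, 30 to 99 nt held 13.9% and 13.3%, 100 nt to under 300 nt held 39.5% and 34.7%, and 300 nt or more held 43.5% and 49.1%. The median distance was 263 nt in DMSO and 292 nt in AICAR. The annotated ends are not uniform: the 72 transcripts are 312 to 7425 nt long, and 17 of them stop at most 5 nt after the stop codon, before any stem-loop. Of the 37 reads within 9 nt of an end, 20 lay at such a truncated end.

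The stem-loop itself was therefore used as the landmark. The histone stem-loop consensus, a run of 16 bases with 6 paired bases on either side of a loop of 4, was found behind the stop codon in 48 transcripts of 46 genes, 21 to 58 nt after the stop codon. It was found anywhere in 0.174% of the other protein_coding transcripts. Examples are shown with the stem-loop in capitals.
Hist4h4, chr6:136803993-136804018, minus strand: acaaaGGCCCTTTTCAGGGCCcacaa
Hist1h1c, chr13:23739507-23739532, plus strand: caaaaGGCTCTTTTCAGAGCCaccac
The mature mRNA was taken to end 5 nt after it. The end was not measured here and is background knowledge.

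The stem-loop was almost free of reads. Only 9 DMSO and 6 AICAR reads touched any of its 16 bases over the 48 transcripts, and 0 and 1 read spanned it. On average each of its bases was covered by 4.0 DMSO and 3.0 AICAR reads, against 97.9 and 54.2 over the 135 bases before it. Most of this fall came before the stem-loop. The cover was 26 and 10 reads at 30 nt before its last base, and 8 and 6 reads at 16 nt before it. Reads whose last base lay in the 60 nt before the stem-loop numbered 373 in DMSO and 170 in AICAR, an FC of 0.408 (0.338 to 0.490). Only 1 read in each library crossed the mature end.

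A separate group of fragments began behind the mature end. Of the 29 genes whose annotation continues for at least 45 nt past the stem-loop, 16 matched tags that began after the mature end and ended within those 45 nt, as did 3 genes with a shorter annotation. These 101 tags had 94 DMSO and 81 AICAR reads, 4.98 RPM (4.03 to 6.10) and 3.84 RPM (3.05 to 4.77). Their FC was 0.771 with an interval of 0.566 to 1.05 that reached past 1. The interval lay just above that of all coding-sequence fragments, but not in matched comparisons. It overlapped the coding-sequence interval of the genes with a stem-loop (0.489 to 0.572), and at 24 nt or more the FC was 0.792 (0.539 to 1.16) downstream and 0.590 (0.518 to 0.672) in the coding sequence. At 20 to 23 nt it was 0.732 (0.423 to 1.26) and 0.474 (0.432 to 0.520), and for downstream tags without a match to another gene it was 0.731 (0.533 to 1.00077). All but 1 DMSO and 5 AICAR reads matched no other gene.

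These downstream fragments had common boundaries, counted from the last base of the stem-loop, within the limits that their definition sets. Of their reads, 45.7% were on Hist4h4. The first base lay 7 to 16 nt behind the stem-loop in 88 of 94 reads in DMSO and in 74 of 81 in AICAR. The last base lay 33 to 37 nt behind it in 72 and 64 reads. They were longer than the histone fragments in general, with 61 DMSO and 54 AICAR reads of 24 nt or more against 33 and 27 of 20 to 23 nt. From nt 16 to 33 behind the stem-loop, each base was covered by 92.3 DMSO and 83.9 AICAR reads on average.

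**Figure D4:**
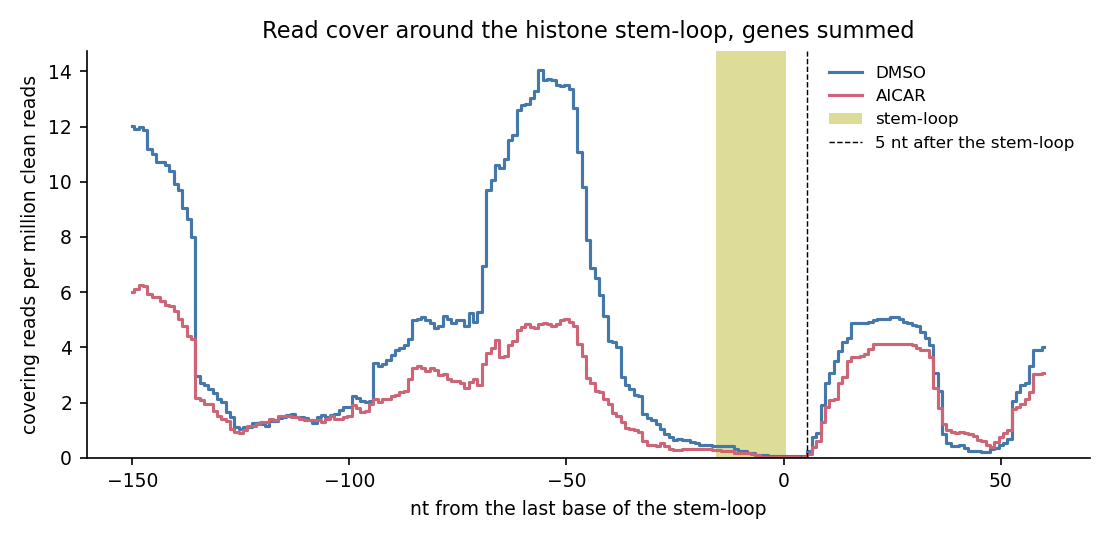
RPM that cover each position around the stem-loop (horizontal axis, nt from its last base, negative towards the coding sequence), summed over the histone transcripts that hold it. The cover fell before the stem-loop and was near 0 within it (shaded, 4.0 DMSO and 3.0 AICAR reads a base). It rose again behind the dashed line 5 nt after the stem-loop, where DMSO and AICAR lay closer together than before the stem-loop. Reads beyond nt 50 include the repeat-like tags.

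The downstream fragments held the stretch complementary to the 5′ end of U7 snRNA, the guide RNA of histone 3′ end processing. The first 20 bases of the annotated mouse U7 (Rnu7) are shown with 1 downstream tag each of 6 genes, chosen after their sequences were seen because they hold the run in full. All are in DNA letters, and capitals mark the longest run that pairs with U7 by Watson-Crick pairs only.
U7, bases 1 to 20: aagtgttacagctcttttag
Hist4h4, chr6:136803962-136803988, minus strand: tcagaaagGAGCTGTggacatttgtag
Hist1h1c, chr13:23739535-23739562, plus strand: ccacttAAGAGCTGTgacatttgtgtga
Hist1h1e, chr13:23621745-23621771, minus strand: ctcagTAAAAGAGCTGTtgcacattca
Hist2h4, chr3:96262901-96262923, minus strand: aggAGAGCTGacactgacttggg
Hist2h3c2, chr3:96238450-96238476, minus strand: ttcccggAAAGAGCTGTttacttcgct
Hist1h1d, chr13:23555812-23555839, plus strand: ctcattcAAAAGAGCTGagcctttttct
The run had 12 bases in Hist1h1e (U7 bases 8 to 19), 10 in Hist2h3c2 and Hist1h1d, 9 in Hist1h1c (U7 bases 8 to 16) and 7 in Hist4h4 (U7 bases 8 to 14) and Hist2h4.

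A run of at least 6 bases complementary to the first 20 bases of U7 was present in 97 of the 101 downstream tags, with 171 of their 175 reads. Among the 29 genes with a full window of 40 nt behind the mature end, 21 (72.4%) held such a run, compared with 13.1% of windows of this length in the other protein_coding transcripts and 14.5% in the histone coding sequences. Of the 16 genes with a full window and with downstream reads, 15 held a run, with a median longest match of 6.5 bases. Of the 13 without downstream reads, 6 did, with a median of 5 bases. A match is a description of the letters, and pairing was not measured.

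Hist4h4, an H4 gene that lies alone outside the clusters, supplied 45.7% of the downstream reads. It had 41 DMSO and 39 AICAR reads there (FC 0.851, 0.535 to 1.35), whereas its own reads before the mature end numbered 76 and 23 (FC 0.271, 0.162 to 0.437). The intervals of these 2 parts of the transcript did not overlap, but the parts were not matched for tag length, on which the FC depended. Hist1h1c, an H1 gene, had 14 and 13 downstream reads and 19 and 16 reads before the mature end (FC 0.753, 0.362 to 1.55). The other genes with at least 5 downstream reads were Hist1h3a with 7 and 2, Hist2h4 with 6 and 2, Hist1h1e with 5 and 1, Hist1h3g with 3 and 3, Hist1h4a with 2 and 4, and Hist2h3c2 with 3 and 2. In addition, Hist1h3e and Hist1h3f shared 1 and 7 reads that could not be divided between them, and Hist2h2aa1 and Hist2h2aa2 shared 1 and 5. Without Hist4h4 the downstream reads numbered 53 and 42, an FC of 0.709 (0.461 to 1.08). U7 snRNA itself was read 31 and 29 times on tags of at least 20 nt (FC 0.837, 0.487 to 1.44).

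Farther downstream lay 205 DMSO and 236 AICAR reads (FC 1.03, 0.851 to 1.25). Of these, 131 and 139 were on repeat-like tags. The most read one, on Hist1h2bh, had 6 and 15 reads and matched 77 other genes, so that its origin is uncertain. Reads of this stretch made up 7.67% of the histone reads in DMSO and 13.7% in AICAR.

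For single genes, all 66 with reads had at least 20 when each tag was counted in full. Their FC ranged from 0.354 to 0.775 with a median of 0.538, and 66 of 66 were below 1, compared with a median of 0.895 and 4171 below 1 among the 7077 protein_coding genes of at least 20 reads. In 20 of the 66 the FC was at most 0.5, whereas this held for 8.25% of all protein_coding genes tested, and in 0 of 66 it was at least 2, against a background of 5.82%. Ribosomal protein genes had similar values, with 85 of 86 below 1, 19 of 86 at most 0.5, 0 at least 2 and a median of 0.593. The genes of a class share most of their tags, so the histone counts do not come from 66 separate measurements.

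The lowest values counted in full were those of Hist1h1b (101 DMSO and 40 AICAR reads, FC 0.354), Hist1h1a (115 and 47, FC 0.366), Hist1h2aa, a testis form of H2A (41 and 18, FC 0.393), Hist2h4 (82 and 38, FC 0.415) and Hist1h3c (248 and 116, FC 0.418). The highest were those of Hist1h2ba, a testis form of H2B (45 and 39, FC 0.775), Hist1h2bh (236 and 198, FC 0.751), Hist1h4b (167 and 136, FC 0.729), Hist1h4i (268 and 216, FC 0.721) and Hist1h4h (190 and 152, FC 0.716). Counted in full, the most read genes of each class were Hist1h1d (191 and 138 reads), Hist1h2ad (387 and 223), Hist1h2bh, Hist1h3f (253 and 165) and Hist1h4i. Neither testis form stood on reads of its own: Hist1h2aa had 0 reads that no other histone gene shared, and Hist1h2ba had 1. In Hist1h2bh and Hist1h4i, most of the reads of their own lay farther downstream.

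Tags that matched 1 histone gene only, some of which also matched genes outside the histone list, separated the genes. They held 1224 DMSO and 799 AICAR reads, with an FC of 0.584 (0.534 to 0.639), and 29 genes had at least 20 such reads. The FC was below 1 in 24 of the 29 and at most 0.5 in 10, with a median of 0.696 and a range of 0.185 to 1.66. Over all protein_coding genes, counted in full, 4171 of 7077 were below 1 and 8.25% at most 0.5.

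Among the H1 genes, Hist1h1a had 88 and 32 reads of its own (FC 0.325, 0.210 to 0.493) and Hist1h1b had 69 and 23 (FC 0.298, 0.178 to 0.484). Hist1h1d had 112 and 89 (FC 0.711, 0.532 to 0.948), and Hist1h1c had 42 and 41 (FC 0.873, 0.554 to 1.38). The intervals of the former pair did not overlap those of the latter pair. Before the mature end, however, Hist1h1d had 85 and 57 reads (FC 0.600, 0.421 to 0.849), and the intervals of both Hist1h1d and Hist1h1c, the latter on 19 and 16 reads, then overlapped those of Hist1h1a and Hist1h1b. Hist1h1e had 29 and 20 reads of its own (FC 0.617), and 19 and 7 of these lay before the mature end (FC 0.330, 0.117 to 0.819).

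Among the H4 genes, Hist1h4f had 42 and 10 reads of its own (FC 0.213, 0.0953 to 0.431), Hist2h4 59 and 21 (FC 0.318, 0.184 to 0.532) and Hist1h4d 96 and 40 (FC 0.373, 0.251 to 0.544). Hist4h4 had 125 and 69 (FC 0.494, 0.363 to 0.668). Hist1h4h had 19 and 25 reads (FC 1.18, 0.623 to 2.26), an interval that lay above those of Hist1h4f, Hist2h4 and Hist1h4d.

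Among the H3 genes, Hist1h3c had 29 and 6 reads of its own (FC 0.185, 0.0628 to 0.454), and Hist1h3f had 36 and 37 (FC 0.920, 0.565 to 1.497), with intervals that did not overlap. Hist1h3b, with 7 and 13 reads, had the highest FC, 1.66, with an interval of 0.616 to 4.92. The H2A genes had fewer reads of their own, 28 and 24 in Hist2h2aa1 (FC 0.767, 0.426 to 1.37), 18 and 14 in Hist1h2ac (FC 0.696) and 12 and 14 in Hist3h2a (FC 1.04). At nearly the same depth, and named after their values were seen, Hist1h2af had 18 and 5 (FC 0.249, 0.0721 to 0.695), Hist1h2ab 16 and 6 (FC 0.336, 0.108 to 0.903) and Hist1h2ae 8 and 13 (FC 1.45, 0.559 to 4.05). In H2B, Hist1h2bc had 16 and 11 (FC 0.615), Hist2h2bb 14 and 15 (FC 0.959) and Hist1h2bh 44 and 64 (FC 1.30, 0.873 to 1.96), of which 39 and 62 lay farther downstream. The most read Hist1h2bh tag among them, with 6 and 15 reads, matched 77 genes outside the histone list, so that its origin is uncertain.

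**Figure D5:**
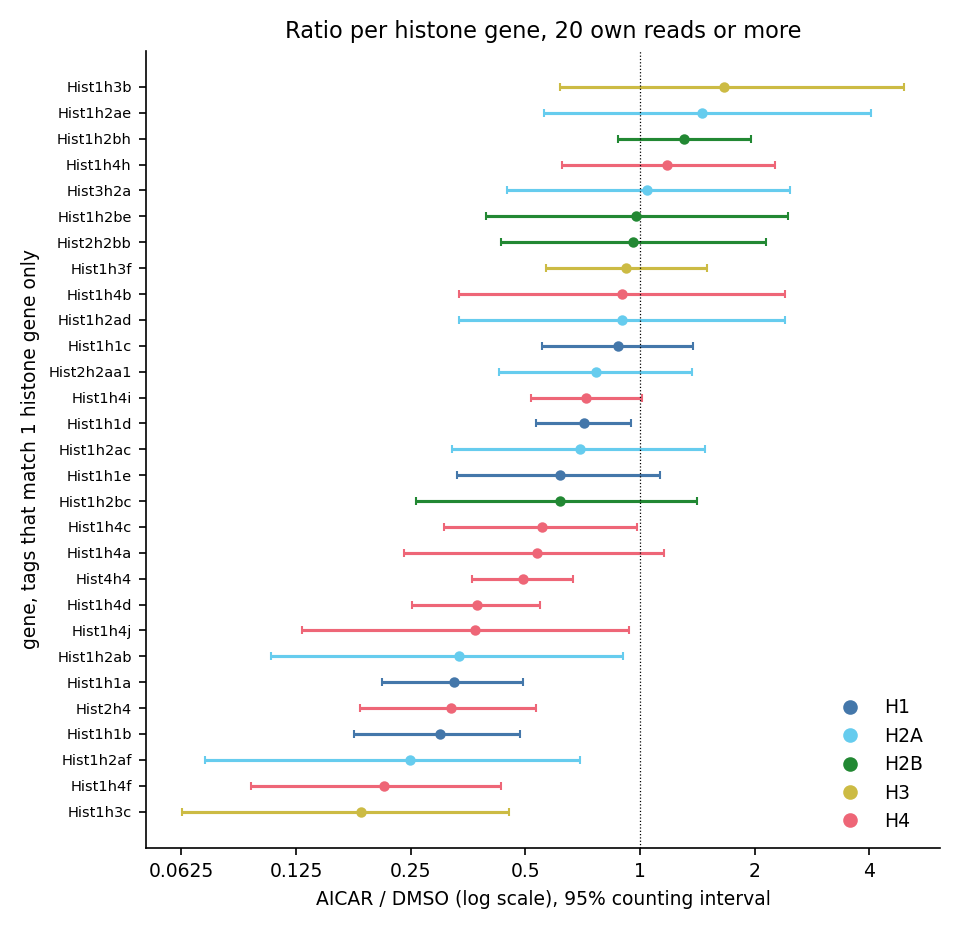
Ratio AICAR over DMSO (horizontal log axis) of reads on tags that match 1 histone gene only, for the 29 histone genes with at least 20 such reads, coloured by class and ordered by ratio, with 95% counting intervals. Hist1h3c, Hist1h4f, Hist1h2af, Hist1h1b, Hist2h4 and Hist1h1a lie lowest, and 5 genes lie above 1 with intervals that include 1. Among the latter is Hist1h2bh, whose reads include a repeat-like tag.

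Some tags matched a histone transcript except for a run of 1 to 4 equal bases at the 3′ end, and matched no annotated transcript in full. Tails of U were the most frequent, with 96 DMSO and 44 AICAR reads (FC 0.410, 0.280 to 0.592), followed by A with 46 and 32, G with 4 and 5 and C with 0 and 6. U tails of 1 base had 45 and 36 reads, those of 2 bases 27 and 6, those of 3 bases 15 and 2, and those of 4 bases 9 and 0. Examples with the tail in capitals are an H2B tag of 11 genes and a Hist1h4a tag.
H2B, U tail of 3: ggcccagaagaaggacggcaagaaTTT
Hist1h4a, U tail of 4: gtcgggtcgcggcaagggaggaTTTT
Each was read 2 times in DMSO and 0 times in AICAR.

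U tails were less frequent on histone than on ribosomal protein fragments. For each 1000 matched histone reads there were 35.9 U-tailed reads in DMSO (29.1 to 43.9) and 25.5 in AICAR (18.5 to 34.3), against 61.9 and 46.4 for ribosomal protein mRNA and 44.3 and 38.2 for the other protein_coding mRNAs. By position, 58 and 24 of the U-tailed histone reads ended in the coding sequence and 17 and 5 between the stop codon and the mature end. Among the downstream fragments, 26 DMSO and 12 AICAR reads had A tails and 0 had U tails. Of the A-tailed reads, 16 and 10 were on Hist4h4 tags with A after nt 36 behind the stem-loop. The Hist4h4 transcript itself continues with T there. A U added at this end would match the transcript and not count as a tail, so the lack of U tails there is not informative. Differences between the genome of the J1 line and the reference can make a templated base look like a tail, and this was not tested.
Hist4h4, A tail of 1: tcagaaaggagctgtggacatttgtagA
Hist4h4, A tail of 2: aggagctgtggacatttgtagAA
These tags were read 7 and 5 times and 3 and 3 times.

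Other genes of histone biology were read for comparison from lists chosen by function, counting tags in full. Of 24 annotated genes of histone mRNA metabolism, 20 had at least 20 reads, with a median FC of 0.818 against 0.895 over all genes. Of these 20, 3 were at most 0.5 and 0 at least 2, compared with 8.25% and 5.82% in general. Slbp, which binds the stem-loop, had 1062 and 877 reads (FC 0.739, 0.675 to 0.809), and Lsm11, a protein of the U7 particle, 555 and 515 (FC 0.830, 0.735 to 0.938). Wdr33 and Cpsf2, of the 3′ end cleavage machinery, had 133 and 156 reads (FC 1.05) and 134 and 138 reads (FC 0.921). Casp8ap2, a factor of histone gene expression, had the lowest value, with 23 and 7 reads (FC 0.272, 0.0987 to 0.655).

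Of the 13 replication-independent histone variant genes, whose mRNAs carry a poly(A) tail in most cases, 10 had at least 20 reads, with a median FC of 0.593. Of these, 10 of 10 were below 1 and 3 at most 0.5, against 4171 of 7077 and 8.25% of all protein_coding genes of at least 20 reads. H3f3b, an H3.3 gene, had 118 and 69 reads (FC 0.523, 0.383 to 0.710), and H2afz 91 and 71 (FC 0.698, 0.504 to 0.963). H2afx had 284 and 139 reads, but only 77 and 29 of them on tags that no replication-dependent histone gene shared, and H2afj only 0 and 3 of its 244 and 132. The counts and the median of the 10 genes therefore partly repeat the replication-dependent histones. Of the 28 S phase genes, 23 had at least 20 reads, with a median FC of 0.884, 1 at least 2 and 1 at most 0.5, against 5.82% and 8.25% of all genes, so that these counts do not set the list apart. Mcm5, part of the replicative helicase, had 518 and 405 reads (FC 0.700, 0.613 to 0.798), Nasp, a histone chaperone, 165 and 128 (FC 0.694), Mcm3 120 and 90 (FC 0.671) and Mcm6 85 and 84 (FC 0.884). The lowest of the 23 genes with at least 20 reads was Chaf1a, a subunit of a histone chaperone, with 32 and 12 reads (FC 0.336, 0.157 to 0.669).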

How the data were processed

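The authors isolated RNA of 18 to 30 nt, sequenced it on a HiSeq, removed low-quality and contaminant reads and reads under 18 nt, and deposited each distinct tag with its length and its read count, without normalization or alignment. Per the labels the study's genome build was mm9, which was not used here. The deposited counts were used as they stand and scaled to each library's clean reads. Matching used both strands of the GENCODE M21 transcripts (GRCm38), allowed no mismatch, and neither searched the genome nor removed rRNA, tRNA or repeats. Ribosomal protein genes were taken by symbol. Tails of 1 to 4 equal bases were searched on tags of which at least 20 nt matched.

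With 1 library per condition no test of the treatment is possible, so none was made and no p-value is given; differences are called by an FC of at least 2 or at most 0.5 with at least 20 reads. For a library without reads of a gene, the floor was set at 3 reads, 0.159 RPM in DMSO and 0.142 RPM in AICAR. The exact Poisson interval at 0 reads reaches higher, to 0.195 RPM in DMSO and 0.175 RPM in AICAR. In each class the 3 genes and 3 tags with the most reads, and the 5 highest and 5 lowest FC of genes with at least 50 reads, were named. The members and lists were chosen with earlier results of these data known, and the windows around the stem-loop, the U7 runs and the tails were added after the data were seen. Alternatives varied the denominator, tag length, mismatches, shared tags and the 3′ end used. The values of 1 gene of the S phase list are not reported here, although the list's counts include it. Tag matching and gene counting were tested on simulated data. Python 3.11.15 with numpy 2.4.6, scipy 1.17.1, numba 0.67.0 and matplotlib 3.10.9 were used.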

Additional observations from a re-analysis of the deposited data

Results flagged for a closer look

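Reads in antisense of the histone transcripts were outside the comparison and higher in the AICAR library than in DMSO, with an FC of 1.503 (1.13 to 2.02) on 78 and 131 reads. Most of them, 66 and 103, were on tags that also matched at least 10 other genes. Tags that matched no other gene on either strand had 2 and 17 reads. Hist1h1d, whose annotated transcript of 7425 nt is the longest of the list, had 0 and 13 antisense reads.

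Histone tags with an unmatched C at the 3′ end had 6 reads in the AICAR library and 0 in DMSO, where the floor was set at 3 reads. Whether these are tails, sequencing errors or bases of the J1 genome was not tested.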

How the results depend on the processing

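The histone FC stayed below 1 under 12 of 12 alternatives. It was 0.704 per read on protein_coding transcripts, 0.424 per read on miRNA hairpins, 0.532 with tags of at least 18 nt, 0.690 with tags of at least 24 nt, 0.625 with up to 1 mismatch and 0.616 with each distinct tag counted once. The FC of single classes was below 1 under 60 of 60 alternatives (0.396 to 0.986, the highest for H2B with tags of at least 24 nt), and 18 of the 60 lay outside the interval of the reported value.

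The share within 9 nt of the 3′ end was 0.0967% in DMSO and 0.147% in AICAR with tags read in both libraries, 0.329% and 0.433% with transcripts that hold the stem-loop, and 0.206% and 0.248% measured to the stem-loop end, and 0.524% in DMSO with the largest distance.

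The number of histone genes with an FC of at most 0.5 was 20 of 66. It was 3 per read on protein_coding transcripts, 60 per read on miRNA hairpins, 34 with tags of at least 18 nt, 3 of 61 with tags of at least 24 nt, 11 with up to 1 mismatch, 7 of 57 without tags shared with other genes, 3 with each tag counted once, 10 of 45 with stem-loop transcripts and 10 of 29 with tags of 1 gene, of 66 genes where no other number is given. The number with an FC of at least 2 was 0 in each of these settings. Leaving out the repeat-like tags was added after seeing the data and gave an FC of 0.556 and 19 genes.

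No paired analysis was possible because there is 1 library per condition. The choice of denominator and of tag length decides how many genes pass the threshold, and 1 library cannot separate the treatment from the library.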
